A study of Homo sapiens with 4 samples.

Results

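The transcripts of 10 NF-κB genes were followed across 4 RNA-seq libraries of the cell line SUM159, a widely used model of triple negative breast cancer (TNBC). The genes were chosen by name for their roles in the pathway, with earlier results of these data known, and no threshold on their values was used. They comprise the Rel/NF-κB subunits (NFKB1, NFKB2, RELA, RELB and REL), 3 inhibitors of the IκB type (NFKBIA, NFKBIE and NFKBIZ) and the feedback genes TNFAIP3 and BIRC3. They are 10 of the 60279 genes in the count tables, and all 10 passed the expression filter of a mean of at least 1 CPM (a gene's count relative to the library's reads in genes, scaled to 1000000), as did 14269 genes in all. The study combined palbociclib, an inhibitor of the cell cycle kinases CDK4 and CDK6, with indisulam, a sulfonamide that brings the splicing factor RBM39 to a ubiquitin ligase for degradation, and asked whether the pair makes cancer cells senescent. The libraries were made from untreated cells, cells given palbociclib, cells given indisulam and cells given the combination, with 1 library per condition. For its RNA-seq experiments the study reports duplicates, and whether these were pooled is not given in the sources used here. Per the labels the drugs were used at 0.5 µM palbociclib and 2 µM indisulam for 10 days, whereas the text on the series gives 2 µM and 3 µM for 16 h, and the labels were followed. The study describes the 10 day treatment for its senescence libraries and the 16 h treatment for splicing libraries aligned with another program than the TopHat2 named for these libraries. All 4 cultures were grown with insulin and hydrocortisone. Hydrocortisone is a glucocorticoid, a class of hormone known to restrain NF-κB target genes.

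NF-κB proteins are dimers of Rel family subunits. In resting cells IκB proteins such as IκBα, the product of NFKBIA, mask the dimers and hold them in the cytoplasm. Cytokine and pattern recognition receptors activate the IκB kinase, IκBα is ubiquitinated and degraded, and the dimers enter the nucleus and bind κB sites. In a second, slower branch the NFKB2 precursor is processed and pairs with RelB. Several of the induced genes act back on the pathway. NFKBIA resupplies the inhibitor, TNFAIP3 encodes a ubiquitin-editing enzyme that dampens receptor signaling, and BIRC3 encodes a ubiquitin ligase of the receptor complexes. In senescent cells NF-κB is known for driving the genes of the senescence-associated secretory phenotype (SASP), the inflammatory cytokines and chemokines that such cells release. RNA levels alone do not report the location or the binding of NF-κB proteins.

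The libraries held 12555908 (untreated), 12691481 (palbociclib), 16712174 (indisulam) and 14359529 (combination) reads in genes. A count of 3, taken as the floor, corresponds to 0.180 to 0.239 CPM. All differences are between single libraries and have no replicate check, and the bracketed 95% intervals cover counting error only. Markers of a mesenchymal breast line (VIM, CD44, AXL, EGFR, CAV1 and MSN) summed to 5546 to 7791 CPM, whereas luminal markers summed to 12.1 to 17.0 CPM with PGR at the floor in every library. Of the immune cell markers, CD3E, MS4A1 and CD68 were at or under the floor in every library, and PTPRC, the common leukocyte antigen, was at 12.2, 12.5, 17.5 and 11.1 CPM in the untreated, palbociclib, indisulam and combination libraries. CD14 was at 9.24, 5.44, 3.95 and 4.60 CPM in the same order, with a log2 ratio of indisulam to untreated of -1.21. CSF1R had 3, 3, 12 and 17 reads. Endothelial markers summed to 16.9 CPM untreated and 45.0 CPM with palbociclib, of which PECAM1 alone made up 15.2 and 40.9 CPM. The other listed endothelial markers shared no pattern. In the order above, KDR was at 0.796, 1.97, 3.83 and 2.99 CPM. CDH5 had 5, 23, 0 and 0 reads, and VWF 6, 4, 16 and 17 reads. In bulk RNA a change in the mix of cell states and a change of RNA per cell cannot be told apart.

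Several of the 10 genes are themselves known NF-κB targets, and the sequence before their starts was therefore read. RefSeq promoter windows (GRCh38.p14, from 250 bases before to 50 after each start) were available for 8 of the 10 genes. The κB consensus was searched on both strands in the 13 windows of these genes, since some genes have more than 1 start. It was present in 9 of 13 windows, against 3956 of 35116 windows of all genes (11.3%) and 13.2% of the windows of genes that passed the expression filter. These 9 windows belong to 7 genes and hold 15 matches, some of which overlap each other in REL and NFKB2. RELA had no match in its window, and RELB and NFKBIE were not searched. The match nearest to a start in each of the 7 genes is shown in capitals within 10 bases of flank on either side. Each is written 5′ to 3′ in the direction of the gene, so that a match on the opposite strand reads as its reverse complement.
NFKB1 (chr4:102501300-102501329, plus strand): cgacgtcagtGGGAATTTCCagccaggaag
NFKB2 (chr10:102395674-102395703, plus strand): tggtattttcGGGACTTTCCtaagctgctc
REL (chr2:60881518-60881547, plus strand): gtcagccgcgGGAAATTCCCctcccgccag
NFKBIA (chr14:35404811-35404840, minus strand): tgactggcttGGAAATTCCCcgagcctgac
NFKBIZ (chr3:101827757-101827786, plus strand): tttttggtctGGGAATTTCCagtgtgcaga
TNFAIP3 (chr6:137867194-137867223, plus strand): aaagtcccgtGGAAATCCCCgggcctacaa
BIRC3 (chr11:102317339-102317368, plus strand): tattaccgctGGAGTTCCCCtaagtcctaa

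The capitals of NFKB1 and NFKBIZ are the same 10 bases, and those of REL and NFKBIA are these bases read from the other strand. The TNFAIP3 bases recur in the other match of BIRC3, and the NFKB2 bases recur, on the other strand, in the other match of TNFAIP3. The printed match ends 12 bases before the RefSeq start in NFKB2, 37 in REL, 40 in NFKB1, 46 in TNFAIP3, 72 in NFKBIA, 126 in BIRC3 and 214 in NFKBIZ. In the GENCODE release 44 annotation the REL match lies in an exon of REL and that of NFKB2 at the edge of an exon of NFKB2, since other starts of these genes lie further upstream. The NFKBIZ match lies in an exon of its neighbor NXPE3, that of NFKB1 in an exon of an antisense lncRNA, and those of TNFAIP3 and BIRC3 in introns of antisense lncRNAs. The NFKBIA match lies in no annotated gene. A match describes the letters only, and binding was not measured.

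RELA, NFKB1, RELB, NFKB2 and REL encode the subunits. RELA (chr11:65653599-65663090) encodes p65, the main transactivating subunit of the classical branch. RELA was at 81.9 CPM without treatment, 78.2 with palbociclib, 105 with indisulam and 74.7 with the combination. The indisulam library was the highest, and the counting intervals of the other 3 overlapped each other. Over untreated cells indisulam gave a log2 ratio of 0.36 (0.25 to 0.47), while that of the combination was -0.13 (-0.26 to -0.01). NFKB1 (chr4:102501330-102617302), the precursor of the classical DNA-binding partner of p65, was at 69.4, 63.8, 96.4 and 77.9 CPM in the same order. It was also highest with indisulam, at a log2 ratio to untreated of 0.47 (0.35 to 0.59), and lowest with palbociclib, where the interval of its ratio, -0.26 to 0.02, included no change.

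NFKB2 and RELB belong to the slower branch, and both were at least 2-fold higher in the indisulam library than in the untreated library. NFKB2 (chr10:102394110-102402524) was at 38.1 CPM untreated, 46.5 with palbociclib, 86.5 with indisulam and 73.5 with the combination. No intervals overlapped between these libraries, and relative to untreated cells indisulam gave a log2 ratio of 1.18 (1.03 to 1.33) and the combination one of 0.95 (0.79 to 1.10). RELB (chr19:45001461-45038192) was at 16.6, 19.0, 37.9 and 23.5 CPM. The indisulam library stood apart from the other 3, at a log2 ratio to untreated of 1.19 (0.96 to 1.41), whereas the combination gave 0.49 (0.25 to 0.74). REL (chr2:60881491-60931612), whose product c-Rel is best known from lymphoid cells, was the lowest of the 10 genes at 7.01, 7.72, 10.9 and 8.98 CPM. It was counted 88 to 182 times per library, and its ratio to untreated was 0.63 (0.27 to 1.00) with indisulam, below the 2-fold threshold.

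**Figure D1:**
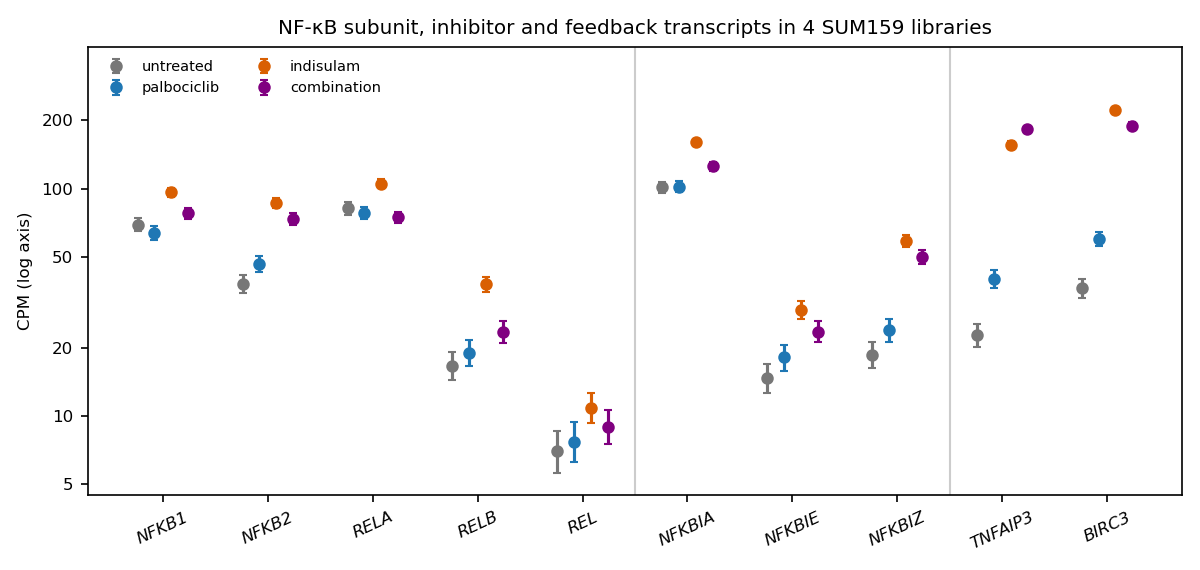
CPM (log axis) of the 10 genes in the untreated, palbociclib, indisulam and combination libraries, with 1 point per library and bars for the exact 95% Poisson interval; grey lines separate subunits, IκB genes and feedback genes. Indisulam was the highest library for 9 of the 10 genes, and for TNFAIP3 the combination was highest at 182 CPM.

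Because the subunits share a library, their mix can be compared without scaling for depth. RELA made up 38.4% (36.6 to 40.3) of the reads of the 5 subunit genes without treatment, 36.3% with palbociclib, 31.2% with indisulam and 28.9% (27.4 to 30.4) with the combination. NFKB2 went the other way, from 17.9% (16.4 to 19.4) to 21.6%, 25.7% and 28.4% (27.0 to 29.9). NFKB2 reads were 0.548 times the NFKB1 reads in untreated cells (0.489 to 0.614) and 0.943 times in the combination (0.866 to 1.03). The ratio of RELB to RELA was 0.203, 0.243, 0.361 and 0.314 in untreated, palbociclib, indisulam and combination libraries, and here indisulam was highest. The ratio of REL to RELA lay between 0.0856 and 0.120, with overlapping intervals in untreated and combination libraries (0.0681 to 0.106 and 0.0994 to 0.144). Per kilobase of exon, a scale on which levels of different genes can be set side by side, RELA had the highest level of the 5 subunits in each of the libraries (13.7 to 19.3 CPM per kb) and REL the lowest (0.409 to 0.636 CPM per kb). Exon lengths here join all annotated exons of a gene, so a gene with long alternative exons such as REL reads low on this scale.

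**Figure D2:**
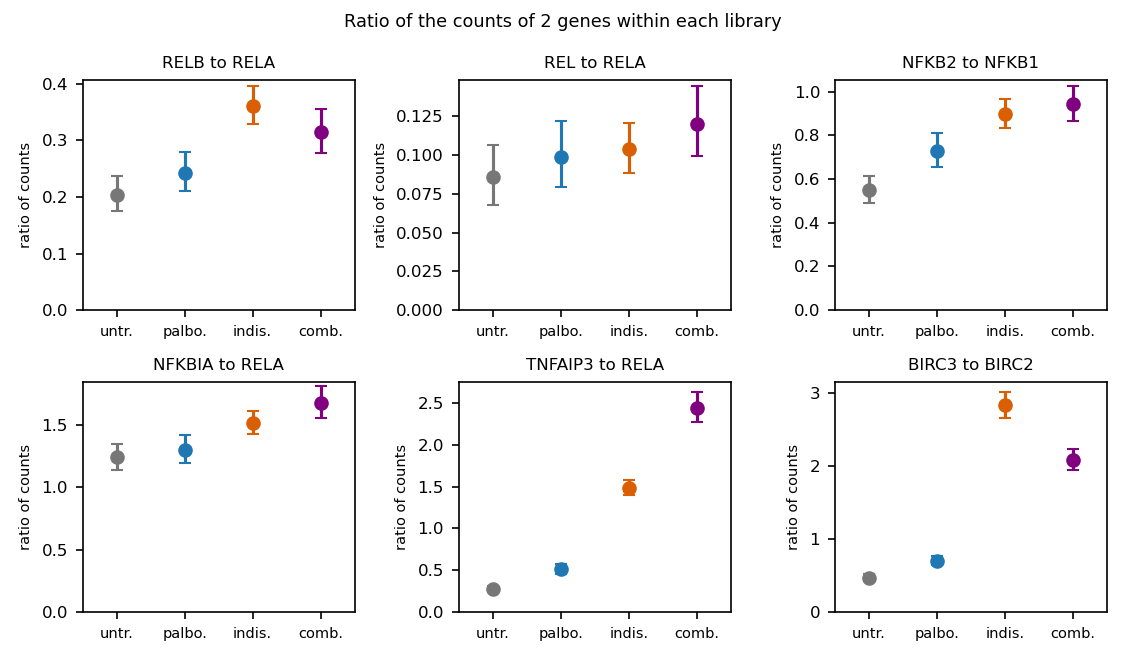
Ratio of the read counts of a pair of genes within each library (vertical axes from 0, no unit), for untreated, palbociclib, indisulam and combination libraries in that order, with bars for the 95% counting interval. The NFKB2 to NFKB1 and TNFAIP3 to RELA ratios were highest with the combination (0.943 and 2.44), and the BIRC3 to BIRC2 ratio was highest with indisulam alone (2.84).

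NFKBIA (chr14:35401079-35404749) encodes IκBα, the inhibitor that each round of NF-κB activity resynthesizes. It was at 102 CPM in both the untreated and the palbociclib library, 159.7 with indisulam and 125 with the combination. Palbociclib alone gave a log2 ratio of 0.00 (-0.11 to 0.12), whereas indisulam gave 0.65 (0.55 to 0.75) and the combination 0.30 (0.20 to 0.40), each below 2-fold. Per kilobase NFKBIA had the highest level of the 10 genes in every library, at 30.0 CPM per kb untreated and 47.1 CPM per kb with indisulam. Set against RELA in the same library, NFKBIA reads were 1.24 times RELA reads untreated (1.14 to 1.35), 1.30 with palbociclib, 1.52 with indisulam and 1.68 with the combination (1.55 to 1.81). The highest CPM was thus in the indisulam library and the highest ratio to RELA in the combination library.

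NFKBIE (chr6:44258166-44265788) encodes IκBε, a cytoplasmic inhibitor with slower turnover. It was at 14.7 CPM untreated, 18.1 with palbociclib, 29.2 with indisulam and 23.5 with the combination. With indisulam it reached 0.98 on the log2 scale relative to untreated (0.74 to 1.23), just under the 2-fold threshold, and with the combination it was 0.67 (0.42 to 0.93). NFKBIZ (chr3:101827991-101861022) encodes IκBζ, an atypical nuclear IκB that acts as a cofactor on a subset of target genes. It was at 18.6, 23.8, 58.8 and 50.1 CPM, so that both libraries with indisulam were above both without it, and no intervals overlapped. Relative to untreated cells, NFKBIZ had a log2 ratio of 1.65 (1.45 to 1.86) with indisulam and 1.42 (1.21 to 1.64) with both drugs, and relative to palbociclib alone the combination gave 1.07 (0.88 to 1.27). With TMM or DESeq2 scaling factors this last ratio was 0.98 or 0.99, under the threshold. NXPE3 overlaps NFKBIZ on the same strand. NXPE3 was at 88.6, 101, 60.0 and 88.0 CPM and so was lowest in the library where NFKBIZ was highest. How reads in the shared stretch were counted depends on an annotation release that is not given in the sources used here. The part of this overlap in the NFKBIZ values was not tested.

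TNFAIP3 and BIRC3 showed the largest differences among the 10 genes. TNFAIP3 (chr6:137867214-137883314) was at 22.7 CPM untreated, 40.1 with palbociclib, 156 with indisulam and 182 with the combination, and no intervals overlapped. Palbociclib gave a log2 ratio over untreated cells of 0.82 (0.61 to 1.03), indisulam one of 2.78 (2.60 to 2.95) and the combination one of 3.00 (2.83 to 3.18), or 8.01-fold. This was the one gene of the 10 that was higher in the combination than in the indisulam library, at a log2 ratio of 0.23 (0.15 to 0.31). In reads, TNFAIP3 went from 0.277 times RELA in untreated cells (0.242 to 0.316) to 2.44 times RELA in the combination (2.27 to 2.62). WAKMAR2, an antisense lncRNA that overlaps TNFAIP3, was counted 4, 13, 45 and 104 times against 285, 509, 2604 and 2619 TNFAIP3 reads. Whether strand was used in the counting is not given in the sources used here, so the reads of this pair cannot be told apart with certainty.

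BIRC3 (chr11:102317484-102339403), which encodes cIAP2, was at 36.4 CPM untreated, 59.9 with palbociclib, 221 with indisulam and 189 with the combination, again without overlap. For BIRC3 palbociclib gave a log2 ratio over untreated cells of 0.72 (0.55 to 0.88), indisulam one of 2.60 (2.46 to 2.74) and the combination one of 2.38 (2.24 to 2.52). The neighboring paralog BIRC2, which encodes cIAP1, differed far less, and BIRC3 reads were 0.475 times BIRC2 reads untreated (0.424 to 0.532), 0.709 with palbociclib, 2.84 with indisulam (2.66 to 3.02) and 2.09 with the combination. BIRC3 therefore passed from fewer reads than BIRC2 in the untreated and palbociclib libraries to more than BIRC2 in both libraries with indisulam. Per kilobase, BIRC3 was at 29.5 and TNFAIP3 at 24.2 CPM per kb with indisulam, behind NFKBIA alone among the 10 genes.

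To ask what indisulam did, the indisulam library was compared with the untreated library and the combination with the palbociclib library, which share no library. Of the 10 genes, 5 (NFKB2, RELB, NFKBIZ, TNFAIP3 and BIRC3) were at least 2-fold higher with indisulam against untreated, where 8.39% of all tested genes were. None was lower, where 6.69% of all tested genes were. All 10 ratios were above 0, where 54.6% of all tested genes were, with a median log2 ratio of 1.08 against 0.06 for all tested genes. With palbociclib present, 3 of 10 (NFKBIZ, TNFAIP3 and BIRC3) were at least 2-fold higher, against 9.56% of all tested genes, and none was lower, against 7.38%. Here 9 of 10 ratios were above 0, where 54.9% of all tested genes were, and the median was 0.34 against 0.07. The same 3 genes were higher by this rule in both comparisons, where 4.86% of tested genes were. The indisulam ratio was smaller with palbociclib than without it for each of the 10 genes, although for REL the interval of the difference (-0.94 to 0.11) included 0 and for NFKB1 the difference was 0.500 times the robust spread over genes of similar expression. It fell for RELB from 1.19 to 0.30 (0.07 to 0.54), for BIRC3 from 2.60 to 1.66 (1.54 to 1.78) and for TNFAIP3 from 2.78 to 2.18 (2.05 to 2.32). RELA was at -0.07 (-0.19 to 0.06) with palbociclib present. The share of all tested genes with a smaller indisulam ratio in the presence of palbociclib was not computed.

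**Figure D3:**
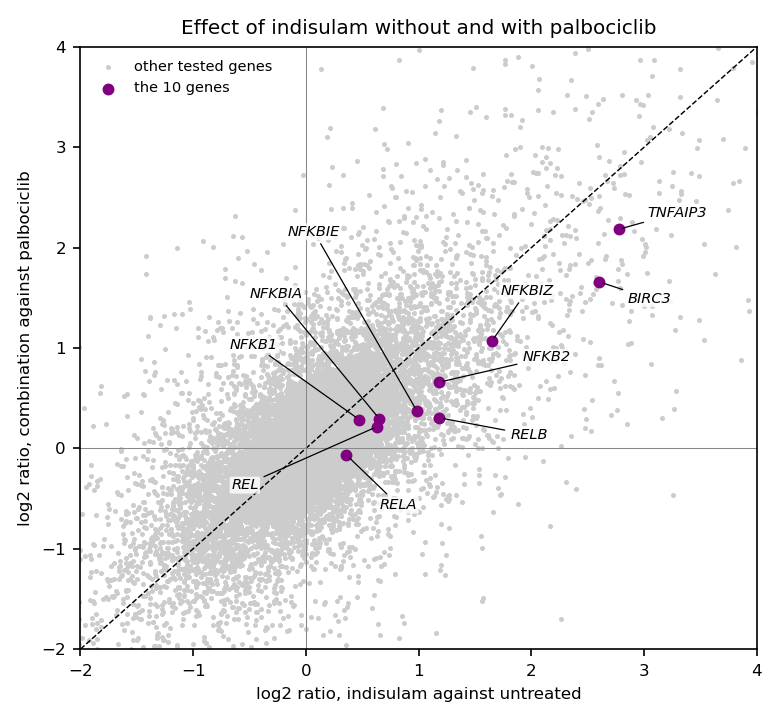
Log2 ratio of indisulam to untreated (horizontal) against log2 ratio of combination to palbociclib (vertical) for the 10 genes (purple) and all other tested genes (grey), with a dashed line of equality. All 10 genes lie below the dashed line, which restates that each indisulam ratio was smaller with palbociclib than without it. The share of all tested genes below this line was not computed. RELA is the one of the 10 below 0 on the vertical axis. Outside the axes, which run from -2 to 4, lie 444 tested genes.

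For palbociclib, the comparison without indisulam (palbociclib against untreated) and that with it (combination against indisulam) likewise share no library. No gene of the 10 was at least 2-fold higher or lower with palbociclib alone, where 5.85% of tested genes were higher and 4.89% lower. TNFAIP3 (0.82) and BIRC3 (0.72) came nearest. Ratios above 0 numbered 8 of 10, where 48.2% of all tested genes were above 0, and the median was 0.24 against -0.02. None was 2-fold higher or lower in the combination against indisulam either, where 5.04% and 3.15% of tested genes were. There, however, 9 of 10 ratios were below 0, with a median of -0.29 against -0.01 for all tested genes. Of all tested genes 48.9% were above 0 in that comparison. RELB was the lowest at -0.69 (-0.88 to -0.50), followed by RELA at -0.49 (-0.60 to -0.38) and NFKBIA at -0.35 (-0.44 to -0.26). The remaining ratios below 0 ran from -0.31 to -0.22, and that of REL had an interval that included no change (-0.60 to 0.05).

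For the combination against untreated, which shares its control library with the single drugs, 3 of 10 genes were at least 2-fold higher (NFKBIZ, TNFAIP3 and BIRC3), against 12.9% of tested genes, and none was lower, against 10.5%. The median was 0.58 against 0.05 for all tested genes. The departure from additivity is the log2 ratio of the combination to untreated minus the sum of those of the single drugs. It was below 0 for all 10 genes. This is the same quantity as the indisulam ratio with palbociclib minus that without it, and so not a further result. The share of all tested genes with a departure below 0 was not computed. The departure ran from -0.18 (-0.36 to -0.01) for NFKB1 to -0.88 (-1.21 to -0.55) for RELB and -0.94 (-1.12 to -0.76) for BIRC3. For BIRC3 the sum of the single drug effects corresponds to 364 CPM, against 189 measured in the combination, and for TNFAIP3 to 275 against 182. None of the 10 departed by 2-fold, where 7.77% of tested genes did in either direction. The robust spread of the departure over genes of similar expression was 0.37 for genes at 20 to 100 CPM, 0.40 above that and 0.52 for genes at 5 to 20 CPM. Departures of RELB and BIRC3 were 2.38 and 2.37 times this spread, and those of the other 8 genes between 0.500 and 1.64 times. The 10 genes share libraries, so these departures are not independent of each other.

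**Figure D4:**
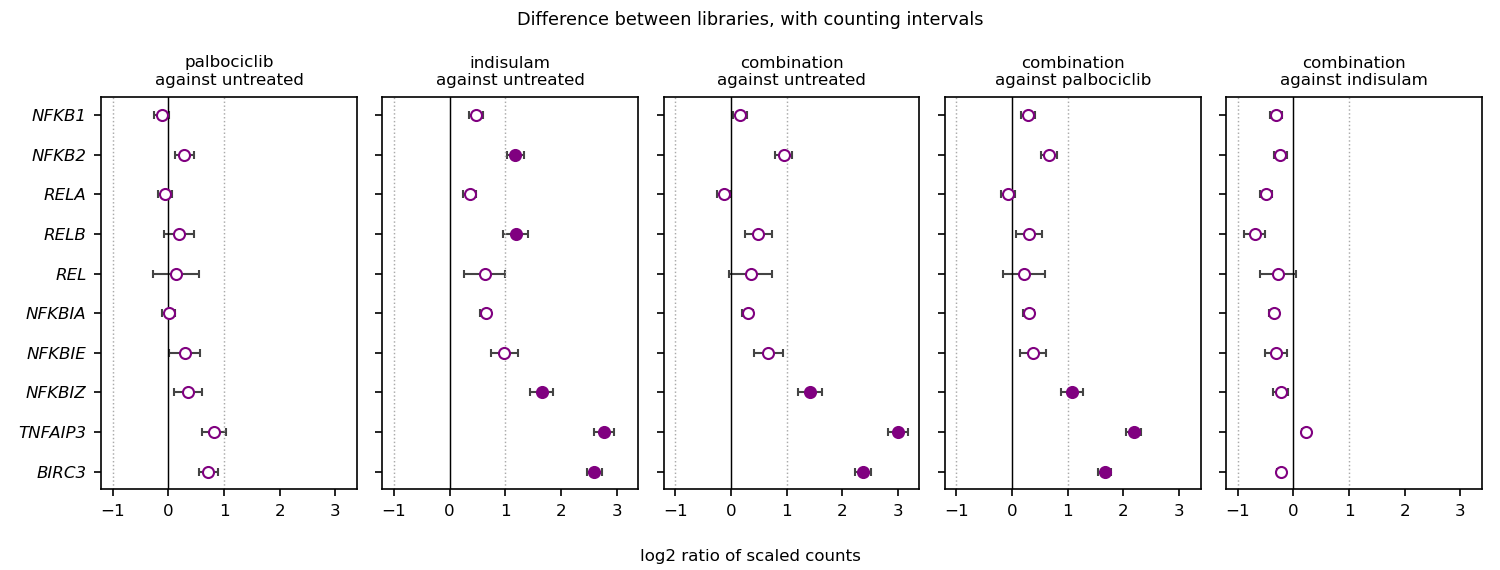
Log2 ratio of scaled counts (horizontal) of the 10 genes in the 5 comparisons, with bars for the 95% counting interval, dotted lines at 2-fold and filled points for genes at least 2-fold apart. Filled points number 0, 5, 3, 3 and 0 from left to right, and in the rightmost panel TNFAIP3 alone lies above 0.

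The departure spread also gives a scale for how far ratios vary between libraries. It was divided by the square root of 2 to apply to a ratio. The result was 0.26 log2 units for genes at 20 to 100 CPM, 0.28 above that and 0.37 at 5 to 20 CPM. This is a typical value over many genes, and it also contains any true interaction. It sets no limit for a single gene, and does not hold a shift shared by the 10 genes in 1 library. Relative to this typical spread the indisulam ratios of TNFAIP3 and BIRC3 were 9.91 and 9.28 times as large. That of NFKBIZ was 6.32 times, and those of NFKB2 and RELB 4.52 and 4.53 times. The ratios of RELA and NFKB1 were 1.38 and 1.81 times the typical spread. In the combination against indisulam, RELB was at 2.64 times this spread and the other 9 genes at 0.750 to 1.88 times. These multiples describe size only and are not a test.

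Ligands come first in the pathway upstream of these genes. TNF, the founding NF-κB cytokine, was counted 0, 0, 4 and 2 times in the untreated, palbociclib, indisulam and combination libraries, and a count of 0 allows up to 0.239 and 0.236 CPM in the former pair. The interleukin-1 cytokines differed widely. IL1A was at 1.12, 0.709, 24.1 and 24.5 CPM, and IL1B at 1.83, 1.02, 26.0 and 40.9 CPM. Their log2 ratios of the combination to untreated were 4.37 (3.63 to 5.12) and 4.43 (3.84 to 5.02). Of 12 listed ligands, 7 passed the expression filter. IL1A, IL1B and IL33 were higher both with indisulam and with the combination against untreated, where 8.39% and 12.9% of all tested genes were. IL33 had 2, 19, 15 and 82 reads and passed the filter through the library where it is high, and of the 6 ligands at 1 CPM or more in the untreated library 2 were higher. TNFSF10, which encodes the death ligand TRAIL, was lower with the combination (-1.83), as were 10.5% of all tested genes. The list's medians were -0.47 with indisulam and 0.10 with the combination, against 0.06 and 0.05 for all tested genes. LTB and TNFSF11 were at or under the floor in every library.

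Receptors showed no common direction. Of 14, none was higher and IL18R1 was lower (-1.01) with palbociclib alone, 2 (TNFRSF12A and TLR2) were higher with indisulam, and 3 were higher and 1 was lower with the combination, all against untreated. These counts are near the shares of all tested genes (8.39% higher with indisulam, 12.9% higher and 10.5% lower with the combination). The median for the combination was -0.16. TNFRSF12A, the receptor of the cytokine TWEAK, was at 39.0, 76.9, 91.6 and 149 CPM, a log2 ratio for the combination of 1.93 (1.79 to 2.07). TLR2 was at 17.6, 34.9, 43.7 and 47.6 CPM (1.43), and IL1RAP, the accessory chain of the interleukin-1 receptor, at 27.6, 42.4, 46.0 and 65.7 CPM (1.25). TNFRSF1A, the main TNF receptor, went the other way, at 476, 337, 268 and 178 CPM, with a log2 ratio of -1.42 (-1.48 to -1.35).

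Of 25 kinases and adaptors, 3 (TRAF1, TRAF3 and CARD10) were higher with the combination against untreated, and IRAK4, a kinase of the interleukin-1 receptor, was lower with the combination, at 33.1, 27.4, 18.5 and 15.7 CPM (-1.07). TRAF1, an adaptor that is itself an NF-κB target, was at 13.1, 55.7, 51.3 and 96.9 CPM (2.88, interval 2.65 to 3.12). TRAF3, a brake on the slower branch, was at 29.9, 55.8, 57.4 and 70.3 CPM (1.23), and the scaffold CARD10 at 7.73, 10.2, 20.1 and 22.4 CPM (1.53). With indisulam alone, 4 were higher (IRAK2, TRAF1, TRAF5 and CARD10). Of all tested genes, 12.9% were higher and 10.5% lower with the combination, so the count for the combination is near the background, and 8.39% were higher with indisulam. Of 18 ubiquitin regulators, 2 (CYLD and TNIP3) were higher and 1 was lower with the combination against untreated. TNIP3 had 3 untreated reads, the floor, and of the 17 genes at 1 CPM or more in the untreated library 1 was higher. CYLD, a deubiquitinase that restrains the pathway, was at 28.7, 51.6, 50.4 and 85.4 CPM (1.57), and SHARPIN, a subunit of the linear ubiquitin ligase, at 34.1, 32.5, 20.2 and 16.4 CPM (-1.06). Of 6 other IκB proteins and regulators, 2 were higher with the combination against untreated, namely NFKBIB, which encodes IκBβ, at 7.33, 7.72, 15.0 and 16.9 CPM (1.20) and NKIRAS1, a small GTPase that binds IκBβ, at 7.49, 10.0, 9.45 and 15.1 CPM (1.01). With TMM, DESeq2 or upper-quartile factors, or a pseudocount of 5, 1 of these 6 was higher, since NKIRAS1 lies at the threshold. Medians of the combination against untreated were 0.48, 0.25 and 0.45 for these 3 lists, and 0.05 for all tested genes.

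Secreted NF-κB targets, most of them SASP factors, were the list with the largest differences. Of 24 listed genes, 20 passed the expression filter. All 20 were higher in the combination than in the untreated library, where 12.9% of all tested genes were, at a median log2 ratio of 3.92. With TMM, DESeq2 or upper-quartile factors 19 of 20 were, since PLAU lies at the threshold (1.01). By the same rule 17 of 20 were higher with indisulam (median 3.27) and 8 of 20 with palbociclib (median 0.79). Of all tested genes 8.39% and 5.85% were, at medians of 0.06 and -0.02. The list was chosen with earlier results of these data known. A gene absent without treatment can pass this filter only through the libraries where it is high. Of the 15 genes at 1 CPM or more in the untreated library, 6 were higher with palbociclib, 13 with indisulam and 15 with the combination. The chemokine CXCL8 was at 9.00, 17.2, 396 and 368 CPM, a log2 ratio for the combination of 5.34 (5.07 to 5.61), and CXCL1 at 1.04, 2.29, 45.6 and 86.8 CPM (6.29, interval 5.53 to 7.06). CSF2, the cytokine GM-CSF, had 1, 47, 274 and 888 reads, and its log2 ratio of 8.68 has an interval from 6.62 to 10.74 because it rests on 1 untreated read. In the combination against indisulam, 16 of 20 secreted targets and 1 of 10 NF-κB genes were above 0, where 48.9% of all tested genes were. The medians were 0.23 and -0.29. For a single gene the typical spread of a ratio was 0.26 to 0.37 at 5 CPM or more. At 1 to 5 CPM, where some secreted targets lie, it was 0.62. This spread is not a scale for a median over a list. By the 2-fold rule 4 of the 20 secreted targets were higher, against 5.04% of all tested genes, and none of the 10 genes was called. Of the 15 secreted targets present without treatment, 13 were above 0 in this comparison and 1 was higher by the rule. CXCL5 and CXCL6 were at or under the floor in every library.

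**Figure D5:**
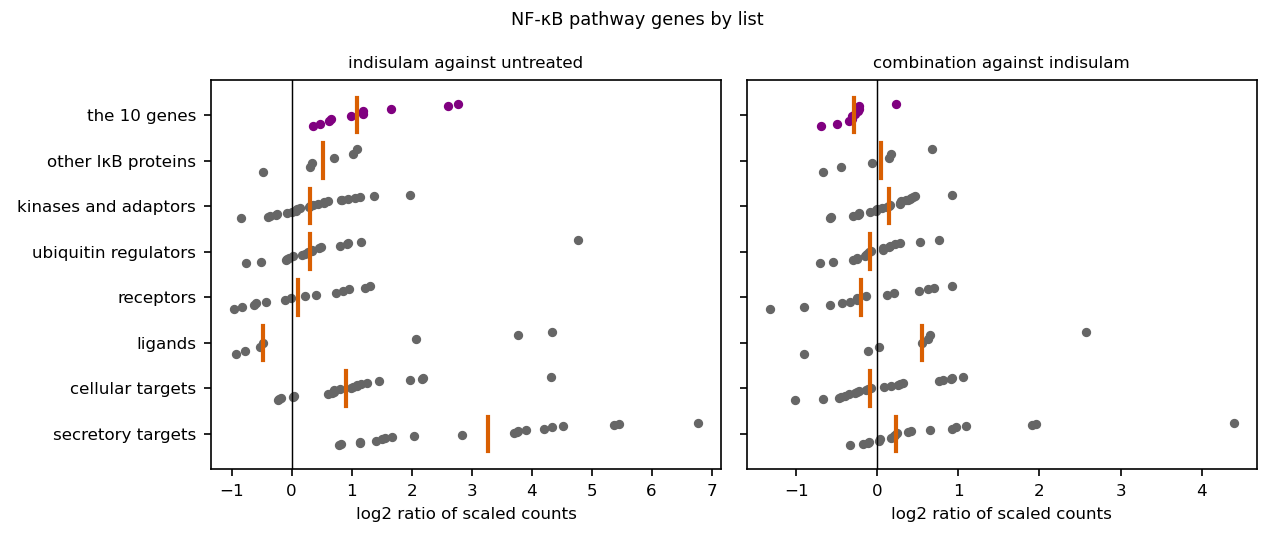
Log2 ratio of scaled counts for tested genes of each list (1 point per gene, spread vertically for sight, orange bars for the median), for indisulam against untreated (left) and the combination against indisulam (right). The median of the 10 genes is 1.08 on the left and -0.29 on the right, and that of the secreted targets 3.27 and 0.23.

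Genes with the most similar pattern were sought among 11366 genes at a mean of at least 5 CPM, by the Euclidean distance between their 3 log2 ratios to untreated. This likeness spans 4 libraries. The 5 genes nearest to NFKBIA were ASAP1, PPIL4, FOXJ3, KMT5B and FGFRL1, at distances of 0.0651 to 0.0891 against a median of 0.967. ASAP1, for example, had ratios of 0.03, 0.61 and 0.35 for palbociclib, indisulam and the combination, next to 0.00, 0.65 and 0.30 for NFKBIA. The genes nearest to TNFAIP3 were ENSG00000279821, TNFAIP6, ZNF320, CHST2 and DCN, at 0.292 to 0.429 against a median of 4.15. TNFAIP6, a secreted hyaluronan-binding protein, had ratios of 0.47, 2.83 and 3.01 on 14 to 140 reads per library. DCN, which encodes the matrix proteoglycan decorin, had ratios of 1.24, 2.85 and 2.98 on 2927 to 28095 reads.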

How the data were processed

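From poly(A) RNA the authors made strand-specific libraries, and they deposited raw counts of reads per Ensembl gene, with tallies of unassigned reads that were kept apart here (2.41 to 2.63% ambiguous and 6.46 to 6.84% not uniquely aligned). The submitters' processing notes name TopHat2 2.1, HTSeq and GRCh38. The strand setting, the annotation release and any pooling of duplicates are not given in the sources used here. Counts were divided by the library's total gene count and multiplied by the mean total (scaled counts), as the study scaled depth by relative totals. Log2 ratios had a pseudocount of 1 scaled count and a 95% Poisson interval. A gene was called at 2-fold or more with an interval excluding 0, among 14269 genes at a mean of 1 CPM or more. With 1 library per group no p-value was computed. Steps were tested on simulated data, in Python 3.11.15 (numpy 2.4.6, scipy 1.17.1, pandas 2.3.3), with scaling factors from R 4.3.3 (edgeR 4.0.16, DESeq2 1.42.0). Positions are from GENCODE 44, counted from 1, and promoter sequences from RefSeq. The 10 genes and the pathway lists were chosen with earlier results of these data known, and several genes are in more than 1 list. From each list the text names up to 4 genes with the largest ratio of combination to untreated among those called at a mean of 5 CPM or more, the genes at the floor, and TNF, IL1A and IL1B. Other listed genes were named after their values were seen, where a count was 5 or less. Of 146 listed names 145 were matched, and SOD2 was not analysed here. A listed immune marker is not reported here.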

Additional observations from a re-analysis of the deposited data

Results flagged for a closer look

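For 4 of the 10 genes the effect of palbociclib had opposite signs without and with indisulam, each beyond its counting interval. NFKB2 was at 0.29 (0.11 to 0.46) on the log2 scale in palbociclib against untreated and at -0.24 (-0.35 to -0.12) in the combination against indisulam, a difference of -0.52. NFKBIE went from 0.30 (0.02 to 0.58) to -0.31 (-0.51 to -0.11), a difference of -0.61. NFKBIZ went from 0.35 (0.11 to 0.60) to -0.23 (-0.37 to -0.09), a difference of -0.58. BIRC3 showed the widest gap, from 0.72 (0.55 to 0.88) to -0.22 (-0.29 to -0.15), a difference of -0.94. Set against the typical spread of a ratio over genes of similar expression, most of these ratios were small. With palbociclib alone NFKB2, NFKBIE and NFKBIZ were at 1.10, 1.14 and 1.34 times this spread, and BIRC3 at 2.56 times. In the combination against indisulam the 4 genes were at 0.794 to 1.19 times. The share of all tested genes with such a change of sign was not computed. The differences are the departures from additivity, and with 1 library per condition they were not tested across replicates.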

How the results depend on the processing

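Of 500 alternative values for the log2 ratios of the 10 genes, 489 kept their call, 2 lost and 9 gained a call, and 0 called values reversed sign. In each comparison the number of the 10 genes below 0 was the same in every setting. Other CPM minima, the 1.5-fold threshold and another form of interval cannot change a log2 ratio, so those settings say nothing on direction. None of 80 alternative departures reached a call, and their signs were not compared. Both losses were NFKBIZ in the combination against palbociclib, at 0.98 with TMM and 0.99 with DESeq2 factors, which leaves 2 of the 10 genes called there. With a 1.5-fold threshold, 2 of the 10 genes were called with palbociclib, 8 with indisulam and 5 with the combination against untreated, and 1 (RELB, lower) in the combination against indisulam. Higher and lower genes among all tested then numbered 1797 and 1736, 2453 and 2032, and 3294 and 2765 against untreated, 2619 and 2064 in the combination against palbociclib, and 1717 and 1450 against indisulam. Cellular targets called higher numbered 17 with indisulam and 14 with the combination. With a 5 CPM minimum the pairs were 438 and 395, 669 and 543, 1107 and 997, 761 and 635, and 293 and 251. Without a minimum, 1197 genes were higher in the combination against indisulam. The limits are single libraries, a dose and duration given differently in the labels and the series text, and 88 to 182 reads for REL.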

Other observations

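NF-κB targets that act inside the cell or at its surface were listed apart from the secreted ones. Of 25 listed genes, 22 passed the expression filter. Against untreated, 3 (VCAM1, TRAF1 and CD83), 10 and 9 of 22 were at least 2-fold higher with palbociclib, indisulam and the combination, with none lower. Of all tested genes, 5.85%, 8.39% and 12.9% were higher and 4.89%, 6.69% and 10.5% lower. CD83 (1 untreated read) and PTGS2 (8 reads) passed the filter through the libraries where they are high, and of the 20 genes at 1 CPM or more in the untreated library 2, 8 and 7 were higher. The median for indisulam was 0.90 against 0.06 for all tested genes. ZC3H12A, an RNase that degrades inflammatory mRNAs, was at 23.7, 27.8, 107 and 77.7 CPM, and like 9 of the 10 NF-κB genes it was lower in the combination than with indisulam, at a log2 ratio of -0.47 (-0.57 to -0.36). VCAM1, an adhesion molecule for leukocytes, was at 6.61, 23.1, 10.8 and 20.5 CPM and so was highest in both libraries with palbociclib. In the combination against indisulam CD83 was at least 2-fold higher (1.06) and GADD45B lower (-1.01). There 10 of 22 genes were above 0, as were 48.9% of all tested genes.

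The κB consensus was present in 11 of 20 promoter windows of secreted targets (55.0%) and 13 of 41 windows of cellular targets (31.7%), next to 9 of 13 windows of the NF-κB genes and 11.3% of all windows. A gene with several starts has several windows, so these shares count windows and not genes.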
